A study of Mus musculus with 3 samples.

Results

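Occupancy of Isl1 was examined at the genes of the Krüppel-like factor (Klf), Sp and early growth response (Egr) families. The genes were chosen by name and comprised 16 Klf genes (Klf8 was not among them), 9 Sp genes, 4 Egr genes and Wt1, whose zinc fingers resemble those of the Egr factors. Of these 30 genes, 23 had at least 1 Isl1 peak assigned to them, with 36 of the 14082 distinct peaks in the list. The cells were cardiac progenitor cells (CPCs) made from the mouse embryonic stem cell line E14 Tg(Nkx2-5-EmGFP), which carries a green fluorescent reporter of the cardiac gene Nkx2-5 and for which the labels name no other modification. They were differentiated with BMP4, Activin A, VEGF, bFGF and FGF10 and collected at day 5. ChIP-Seq, the sequencing of crosslinked chromatin recovered with an antibody to a DNA-bound protein, was performed on 2 Isl1 ChIP samples and 1 input sample, which is chromatin before the pulldown. Both ChIP samples and the input shared genotype, factors and day. The ChIP samples were combined into 1 list of positions, each with the signed distance in bp from its closest transcription start site (TSS) and the gene of that TSS. The list holds no read number or score, so depth and replicate spread are unknown, and the 95% Wilson intervals below cover counting error only. It also holds no expression value, so the labelled cell type could not be checked against its markers.

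Klf, Sp and Egr proteins bind DNA through neighbouring zinc fingers that read GC-rich sequence. Sp factors are known for the GC box, Klf factors for CACCC-type boxes as well as GC boxes, and Egr factors for a GC-rich site of their own. Several of the Klf and Egr genes are immediate-early genes, which respond to growth factors within minutes, whereas Sp1 and Sp3 are expressed in most tissues and Sp5, Sp8 and Sp9 are restricted in the embryo. Isl1 is a LIM-homeodomain factor of the second heart field, and homeodomains read AT-rich sequence with a TAAT core.

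The DNA under these peaks ranged from CpG-dense gene starts to simple repeats. All sequences are from mm9, run 5′ to 3′ on the strand of the gene, leave out annotated untranslated bases, and come from the central 200 bp of a peak unless stated. The promoter peaks are represented by the windows with most matches to motifs that the encoded proteins are known to bind, among those left after that omission. Capitals mark the GC box (GGGCGG), the CACCC box (CCNCACCC) or the Egr site (GCGNGGGCG) on either strand. The Sp2 window at chr11:96838660-96838859 (minus strand) held 6 GC boxes. The stretch beside the Klf3 start at chr5:65194563-65194627 (plus strand) held an Egr site that overlaps a GC box, and another GC box. The windows of Egr2 at chr10:66999647-66999846 and of Klf2 at chr8:74843338-74843537 (both plus strand) held 2 GC boxes each. The Klf2 window, labelled below as the coding start region, lies in coding sequence past the start codon. Its leading atg is not that codon.
Sp2 promoter: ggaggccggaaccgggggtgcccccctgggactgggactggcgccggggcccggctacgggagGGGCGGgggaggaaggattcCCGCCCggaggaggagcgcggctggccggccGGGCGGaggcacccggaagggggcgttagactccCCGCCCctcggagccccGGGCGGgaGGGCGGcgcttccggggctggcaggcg
Klf3 promoter: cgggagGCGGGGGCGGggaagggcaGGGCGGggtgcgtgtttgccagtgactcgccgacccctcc
Egr2 promoter: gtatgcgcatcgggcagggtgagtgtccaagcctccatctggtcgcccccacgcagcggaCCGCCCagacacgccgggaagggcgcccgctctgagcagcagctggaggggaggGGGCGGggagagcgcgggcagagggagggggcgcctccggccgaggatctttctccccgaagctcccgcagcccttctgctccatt
Klf2 coding start region: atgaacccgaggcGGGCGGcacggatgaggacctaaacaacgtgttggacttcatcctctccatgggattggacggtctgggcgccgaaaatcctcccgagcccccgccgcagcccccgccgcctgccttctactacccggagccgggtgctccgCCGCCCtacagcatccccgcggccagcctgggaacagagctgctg

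At Klf13, Klf14 and Klf16, related genes whose products bind Sin3 co-repressors, the middle of the promoter peak covered the start of the coding sequence. These stretches are shown from the start codon with each CpG in capitals, at chr7:71083312-71083432, chr6:30908629-30908697 and chr10:80039809-80039945 (all minus strand). They held 17, 7 and 20 CpGs in 121, 69 and 137 bases. Compared base by base over the first 69 bases without gaps, Klf14 and Klf16 were the same at 49 positions, and Klf13 was the same as either at 26. In the printed bases, the stretches that Klf13 and Klf14 share are out of step, which a comparison without gaps misses. The count of 26 is therefore no measure of how alike Klf13 is to the others. Each peak was at 1 copy in the genome by the measure used below.
Klf13: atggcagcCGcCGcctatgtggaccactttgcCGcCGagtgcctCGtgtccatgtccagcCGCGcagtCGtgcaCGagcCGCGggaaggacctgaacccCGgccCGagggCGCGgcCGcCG
Klf14: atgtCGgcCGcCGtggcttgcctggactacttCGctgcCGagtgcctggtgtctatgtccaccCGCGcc
Klf16: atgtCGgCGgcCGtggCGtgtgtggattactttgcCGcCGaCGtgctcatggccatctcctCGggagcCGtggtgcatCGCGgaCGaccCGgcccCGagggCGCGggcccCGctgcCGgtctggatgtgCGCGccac

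The homeodomain core (TAATNG, either strand, in capitals) lay in the centre of 2 of the 36 peaks. These were the peaks upstream of Sp3, at chr2:72877091-72877290 (minus strand), and upstream of Sp6, at chr11:96858698-96858897 (plus strand). They are shown because they were also the only 2 single-copy peaks farther than 10 kb from the assigned TSS, by the copy number of 31-base words described below.
Sp3 upstream peak: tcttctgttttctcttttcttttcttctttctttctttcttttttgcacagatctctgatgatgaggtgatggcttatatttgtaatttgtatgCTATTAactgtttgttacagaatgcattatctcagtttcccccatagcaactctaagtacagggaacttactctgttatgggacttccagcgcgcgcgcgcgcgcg
Sp6 upstream peak: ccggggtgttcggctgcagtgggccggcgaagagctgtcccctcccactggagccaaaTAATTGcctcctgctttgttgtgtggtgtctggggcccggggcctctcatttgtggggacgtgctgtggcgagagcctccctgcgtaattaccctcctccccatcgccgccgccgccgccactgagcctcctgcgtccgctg

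Repeated DNA is illustrated by the peak upstream of Klf10 (chr15:38235263-38235462) and the intronic peak of Klf13 (chr7:71073563-71073762), both on the minus strand. The window of Klf10 was a run of TTC and TCC units, and that of Klf13 ended in a run of TC units. Neither held a GC box.
Klf10 upstream peak: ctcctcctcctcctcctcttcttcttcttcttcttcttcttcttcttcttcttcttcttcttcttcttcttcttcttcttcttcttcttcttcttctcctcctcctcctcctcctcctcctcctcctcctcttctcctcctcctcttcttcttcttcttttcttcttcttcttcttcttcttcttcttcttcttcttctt
Klf13 intronic peak: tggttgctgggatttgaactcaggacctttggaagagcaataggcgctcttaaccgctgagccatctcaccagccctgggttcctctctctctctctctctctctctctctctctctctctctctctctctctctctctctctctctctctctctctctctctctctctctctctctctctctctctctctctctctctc

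To find how far Isl1 peaks cover these families, genes with an assigned peak were counted. They were 23 of 30 genes, or 76.7% (interval 59.1 to 88.2%), whereas 39.1% of all 21031 protein-coding genes had one. The families stood at 11 of 16 Klf genes, 7 of 9 Sp genes, 4 of 4 Egr genes and Wt1. At least 2 peaks were assigned to 8 of the 30 genes, against 11.1% of protein-coding genes. Peaks no farther than 1 kb from the TSS were found for 12 of 30 genes, against 24.2%, and a peak within 10 kb for 19 of 30, against 28.3%. These shares were read beside the background without a test, because the genes were named with results of this list known. The background was not matched for promoter GC content, which is taken up below.

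**Figure D1:**
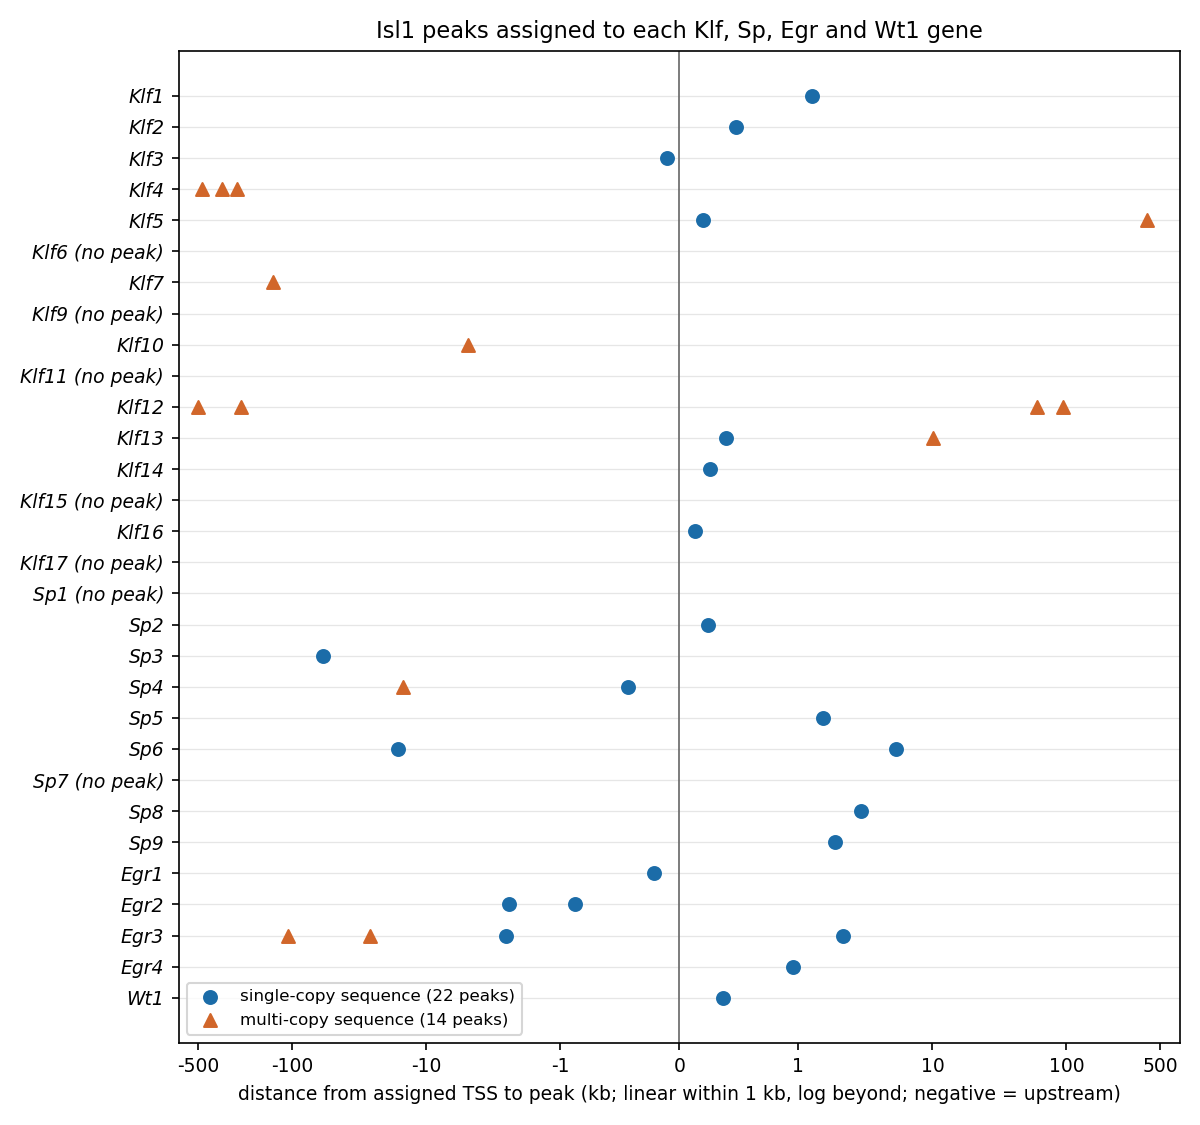
Every Isl1 peak assigned to a Klf, Sp, Egr or Wt1 gene, by its distance in kb from the assigned TSS (linear within 1 kb, log beyond, negative upstream). Circles are the 22 peaks at single-copy sequence and triangles the 14 at multi-copy sequence; 20 of the circles lie within 10 kb, while 13 of the triangles lie beyond, and 7 genes have no peak.

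The peaks divided by how often their DNA occurs in the genome. The copy number of a peak was taken as the median number of occurrences of the 31-base words of its central 200 bp, and a median of at least 2 was called multi-copy. Of 21 peaks within 10 kb of the TSS, 20 were single-copy, and of 15 peaks beyond 10 kb, 13 were multi-copy. In the whole list the shares were similar, with 89.7% of near peaks single-copy and 81.2% of far peaks multi-copy. This division rested on the word length, since with 75-base words 6 of the 15 far peaks and 1 of the 21 near peaks were multi-copy, against 50.9 and 4.98% of the list. All 22 single-copy peaks had a median of exactly 1, and the multi-copy peak nearest to the limit was that of Klf7, at 2.5 copies. Genes with a single-copy peak numbered 19 of 30, against 28.7% of protein-coding genes. By contrast, Klf4, Klf7, Klf10 and Klf12 had peaks at multi-copy sequence alone, or 4 of 30 genes, against 10.3%. With 75-base words Klf10 alone was in this class, or 1 of 30 genes, against 5.29%. Multi-copy peaks made up 11 of 18 Klf peaks, 1 of 9 Sp peaks and 2 of 8 Egr peaks, against 46.5% of the list. The intervals for Klf (38.6 to 79.7%) and Egr (7.15 to 59.1%) took in that share, and that for Sp (1.99 to 43.5%) ended just below it. At multi-copy DNA a read can fit several positions, depending on its length, which is not given. The placement by the aligner was not tested. Copies given below are those of 31-base words unless stated, and by 75-base words some of these peaks were single-copy.

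Next, the Klf genes were examined by position. Klf2, a flow-responsive factor of endothelium, had a peak of 1764 bp centred 476 bp downstream of its TSS in coding sequence. At Klf3, a repressor that recruits CtBP, a peak of 1953 bp was centred 100 bp upstream. Klf5, a factor of stem cells and smooth muscle, carried a peak of 1235 bp at 197 bp and another of 680 bp at 399448 bp, the latter at 18598 copies. Klf13, known for a part in heart development, had the widest peak of all 36, with 2949 bp centred 390 bp downstream, wider than 99.6% of the list. Klf14, an imprinted regulator of metabolism, had 1149 bp at 262 bp, and Klf16 had 2011 bp at 133 bp. In each of these 6 genes the peak covered the gene's own annotated TSS. Klf1, the activator of adult globin genes, was unlike them, as its peak of 1144 bp was centred 1257 bp inside the gene in a coding exon, and its edge lay 685 bp from the TSS.

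The remaining Klf genes had distal or no peaks. Klf4, a pluripotency factor, had 3 peaks at 255642, 334998 and 467076 bp upstream, at 545, 2211 and 22 copies. With 75-base words these were at 222, 176 and 1 copies. The nearest peak of any gene was 181 kb from the Klf4 TSS. Klf12, a repressor of the AP-2alpha gene, had 4 peaks between 60448 and 505637 bp from its TSS, all at 39.5 copies or more. With 75-base words the nearest of them was at 1.5 copies. Klf7, a neuronal factor, had its only peak 138542 bp upstream, and Klf10, induced by TGF-beta, had its only peak 4896 bp upstream at 1530 copies. Klf6, Klf9, Klf11, Klf15 and Klf17 had no assigned peak. Klf6 is an injury-response gene, Klf9 and Klf15 are induced by steroid hormones, Klf11 by TGF-beta, and Klf17 is a germ-cell gene. Klf9 lay farthest from any peak, with 489 kb to the edge of a peak assigned to Trpm3, followed by Klf6 with 387 kb. The others were 69.4 kb (Klf17), 28.4 kb (Klf11) and 23.2 kb (Klf15) away. The nearest peaks of Klf9, Klf6 and Klf15 were multi-copy, at 3037, 14 and 2698.5 copies, and those of Klf17 and Klf11 were single-copy.

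In the Sp family, 4 of 9 genes (Sp2, Sp3, Sp4 and Sp6) had an annotated TSS inside a peak, whereas the peaks of Sp5, Sp8 and Sp9 lay inside the gene without reaching a TSS. Sp5, a target of Wnt signalling, had a peak of 1449 bp centred 1538 bp downstream. Sp8 and Sp9, factors of the limb bud and forebrain, had peaks of 1575 bp at 2908 bp and of 2408 bp at 1881 bp. All 3 were centred in coding exons and stopped short of the nearest annotated TSS, by 814 bp at Sp5, 1259 bp at Sp8 and 678 bp at Sp9. Sp6, a factor of tooth and skin, had a peak of 1037 bp at 5310 bp that covers another annotated start of the gene, and one of 1009 bp at 16086 bp upstream. A further peak of 1338 bp in its coding exon, 3262 bp from that start, was assigned to Gm11532.

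The other Sp genes differed from each other. Sp2 had 765 bp centred 243 bp from the assigned TSS. Sp4, a neuronal factor, had 1666 bp centred 428 bp upstream together with 804 bp at 14863 bp upstream. This farther Sp4 peak was at 5 copies, or 1 with 75-base words. Sp3 had only its peak of 537 bp at 58687 bp upstream by the deposited assignment. However, its own annotated TSS lay inside a single-copy peak of 2620 bp at chr2:72816639-72819259, which the list assigned to the antisense gene Sp3os. Sp1, expressed in most tissues, had no peak, and the nearest, assigned to Aaas, was 49.7 kb from its TSS. Sp7, needed for osteoblasts, had none either, with the same Aaas peak 9.93 kb from its TSS. When the annotated TSSs of each gene were used in place of the assignment, 17 of 30 genes had a TSS inside or within 1 kb of a peak, and 14 had a TSS inside one, against 26.7 and 24.7% of 22219 annotated protein-coding genes.

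Each Egr gene had a single-copy peak within 10 kb. Egr1, the archetypal immediate-early factor, had 1501 bp centred 209 bp upstream. Egr2, needed in hindbrain and Schwann cells, had peaks of 736 and 711 bp at 2384 and 871 bp upstream, with a gap of 790 bp, and the farther one covered the gene's 5′-most annotated TSS. Egr3, needed for muscle spindles, had peaks on either side of its TSS, with 961 bp at 2527 bp upstream and 1375 bp at 2138 bp downstream. Its other 2 peaks, 26358 and 106916 bp upstream, lay in introns of Pebp4 at 33976 and 226 copies of 31-base words. With 75-base words both were at 1 copy. Egr4, a factor of male germ cells, had 2812 bp centred 959 bp downstream in a coding exon. Wt1, a factor of epicardium, kidney and gonad, had 1317 bp centred 370 bp downstream, also in a coding exon.

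**Figure D2:**
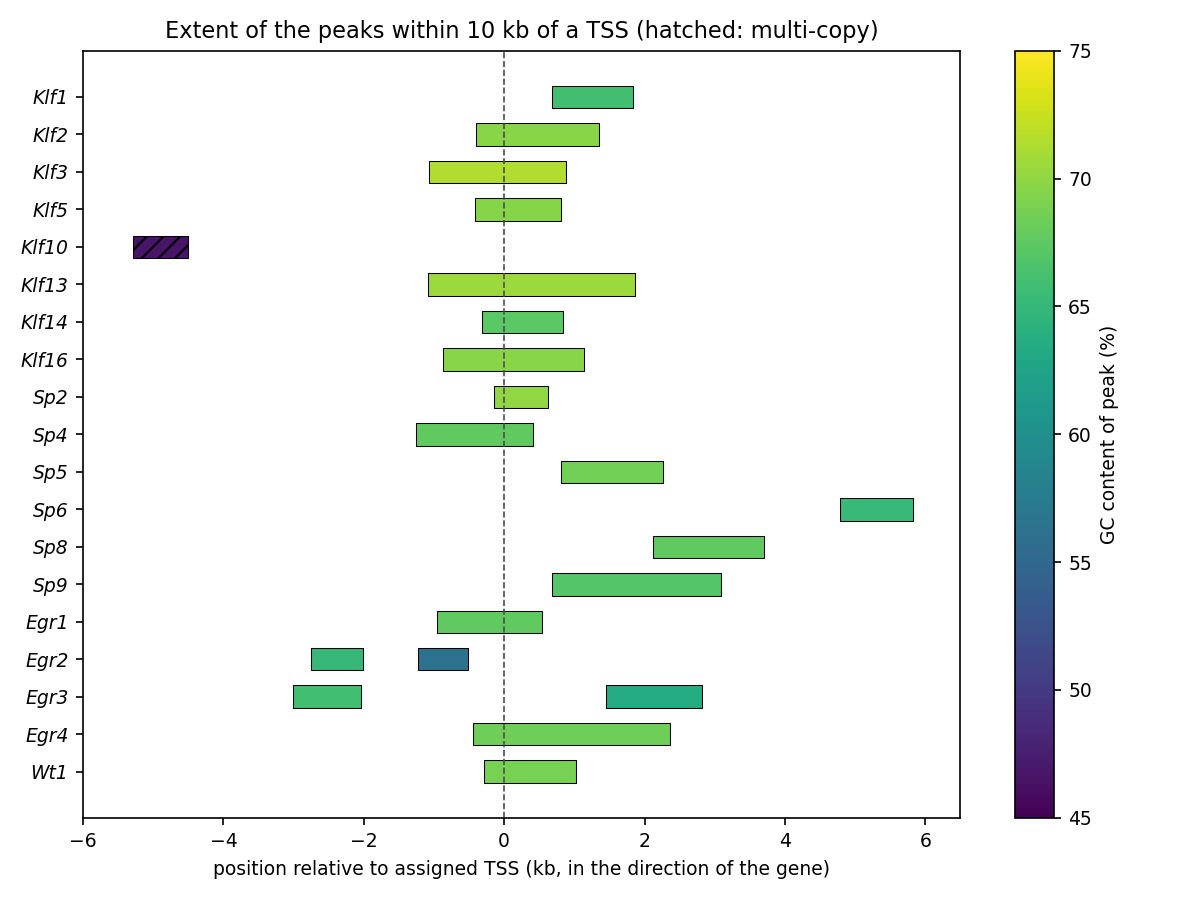
Extent, to scale, of the 21 peaks within 10 kb of an assigned TSS (dashed line), in kb along the gene, with colour for the GC content of the peak and hatching for multi-copy sequence. Peaks span the TSS in 11 of the genes, such as Klf13 (2949 bp) and Egr4 (2812 bp), whereas those of Klf1, Sp5, Sp6, Sp8 and Sp9 start downstream of it and the hatched Klf10 peak lies upstream.

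Peaks between 1 and 10 kb from the TSS made up 9 of the 36, or 25.0% (interval 13.8 to 41.1%), against 10.5% of the list. Those within 1 kb were 33.3%, against 38.5%, and those beyond 10 kb 41.7%, against 51.1%. Midpoints in coding exons were 9 of 36, or 25.0%, against 13.7% of the list. Among single-copy peaks these were 9 of 22, or 40.9% (interval 23.3 to 61.3%), against 24.5%. The 9 were those of Klf1, Klf2, Klf13, Klf16, Sp5, Sp8, Sp9, Egr4 and Wt1. The interval for all 36 peaks, 13.8 to 41.1%, began just above the share of the list, and that for the single-copy peaks took in the share of the list.

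The peaks near the TSS were wide. The 12 peaks within 1 kb had a median width of 1583.5 bp and ranged from 711 to 2949 bp, against a median of 1050 bp for such peaks in the list. Peaks between 1 and 10 kb had a median of 1144 bp, against 819 bp. Beyond 10 kb the order turned, with a median of 716 bp against 882 bp. Over all distances the medians were 1090.5 and 947 bp. Peaks wider than 2 kb numbered 4 of 36 (Klf13, Egr4, Sp9 and Klf16), or 11.1% (interval 4.41 to 25.3%), against 3.09%. The list gives no height, so a wide peak cannot be told apart from a peak that passed the caller's limit over a longer stretch.

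**Figure D3:**
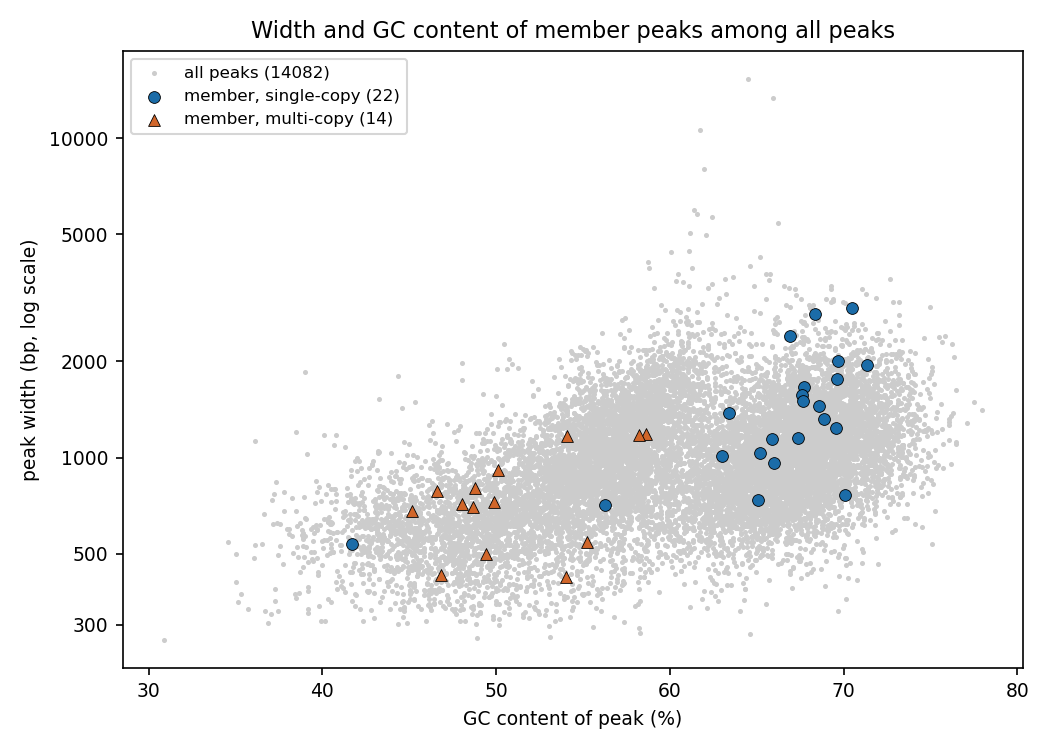
Width (bp, log scale) against GC content of each peak, for the whole list (grey) and for the peaks of the Klf, Sp, Egr and Wt1 genes at single-copy (circles) and multi-copy (triangles) sequence. The circles within 10 kb of a TSS lie at 56.3 to 71.4% GC, the multi-copy triangles at 45.1 to 58.6%, and the Sp3 upstream peak is the circle at 41.7%.

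GC content differed between these kinds, with some overlap. The 20 single-copy peaks within 10 kb had a median GC content of 67.7% (range 56.3 to 71.4%) and 9.39 CpGs per 100 bp, close to 67.4% and 9.07 for such peaks in the list. The 13 multi-copy peaks beyond 10 kb had a median of 49.9% and 0.882 CpGs per 100 bp, lower than the 55.5% and 3.54 of such peaks in the list. The central 200 bp of all 36 had a median of 67.0% GC, whereas flanking windows at an offset of 2 kb had 44.5%. In the list these were 66.5 and 43.0%, so the rise towards the centre was not particular to these genes.

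Motifs of the encoded factors were then counted in the central 200 bp. The GC box occurred in 16 of 36 peaks, or 44.4% (interval 29.5 to 60.4%), against 42.0% of the list. Within 1 kb of the TSS it occurred in 8 of 12, or 66.7%, against 65.7%. The Sp2 window shown above had the most matches with 6, followed by the Sp6 peak at 5310 bp with 4 and by Klf3 and the farther Egr2 peak with 3 each. The CACCC box occurred in 2 of 36 (Klf3 and Klf13), or 5.56%, against 8.78%. The Egr site occurred in Klf3 alone, or 2.78%, against 7.34%, although it can overlap a GC box. No share differed from that of the list by more than its interval.

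The homeodomain core occurred in 2 of 36 centres, or 5.56% (interval 1.54 to 18.1%), against 2.04% of the list. In the list, single-copy peaks beyond 10 kb held it in 5.76% of centres and single-copy peaks within 10 kb in 2.09%, a division made after the 2 matches had been seen. The windows 2 kb to either side held it in 25.8 and 25.6% of the list, and in 6 and 7 of the 36 here, with the lower GC content given above. The string GATAAG, read by Gata factors, occurred in 0 of 36 centres (Wilson upper limit 9.64%) and in 0.866% of the list. A match is a description of the letters and not a binding site.

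Because promoter GC content and the presence of a peak went together in the list, the 30 genes were set beside genes of like promoters. The GC content of 500 bp on either side of the 5′-most TSS had a median of 64.6% in the 30 genes and of 54.8% in 22219 protein-coding genes. Among all genes, a peak lay within 1 kb of that TSS in 1.64% below 50% GC, 13.5% from 50 to 60%, 49.3% from 60 to 65%, 78.3% from 65 to 70% and 94.9% from 70%. The counts here were 0 of 2, 3 of 9, 4 of 5, 4 of 9 and 4 of 5, in the same order. They stood above the shares of all genes from 50 to 65% GC and below them from 65%. The total was 15 of 30 against 25.0% of all genes, a background that is not matched for GC content.

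At 65% GC and above, 84.0% of all genes had such a peak, but 8 of 14 of these genes did. The 6 without it were Klf4, Klf9, Klf10, Klf11, Klf15 and Egr3. The 8 with it were Klf3, Klf5, Klf13, Klf16, Sp3, Sp4, Egr1 and Egr4, so Klf genes were common in both groups. The boundary of 65% was set after these values had been seen. In the 150 bases before that TSS, the 6 genes without a peak held 4 to 27 CpGs (median 17.5) and the 8 with a peak 8 to 25 (median 16.0). Klf9 was the lowest of all 14, and Klf15, also without a peak, the highest. As examples, these bases are given for Klf11 (chr12:25336086-25336235, plus strand) and Klf9 (chr19:23215566-23215715, plus strand), which have no peak. They are also given for Klf16 (chr10:80040042-80040191, minus strand), which lies inside a peak. Each CpG is in capitals. The 3 examples held 16, 4 and 21 CpGs at 76.0, 55.3 and 83.3% GC. They do not span the range, as Klf15 is not shown, and Klf5, which has a peak, held 8.
Klf11 upstream: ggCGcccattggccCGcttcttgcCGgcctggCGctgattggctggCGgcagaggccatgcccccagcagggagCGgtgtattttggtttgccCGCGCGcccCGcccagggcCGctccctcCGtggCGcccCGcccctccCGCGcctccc
Klf9 upstream: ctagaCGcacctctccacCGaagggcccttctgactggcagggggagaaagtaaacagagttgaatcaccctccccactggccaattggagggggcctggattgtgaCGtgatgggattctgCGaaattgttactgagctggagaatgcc
Klf16 upstream: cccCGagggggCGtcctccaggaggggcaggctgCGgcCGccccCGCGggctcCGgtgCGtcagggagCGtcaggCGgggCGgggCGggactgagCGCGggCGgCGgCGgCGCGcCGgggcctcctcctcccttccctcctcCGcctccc

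**Figure D4:**
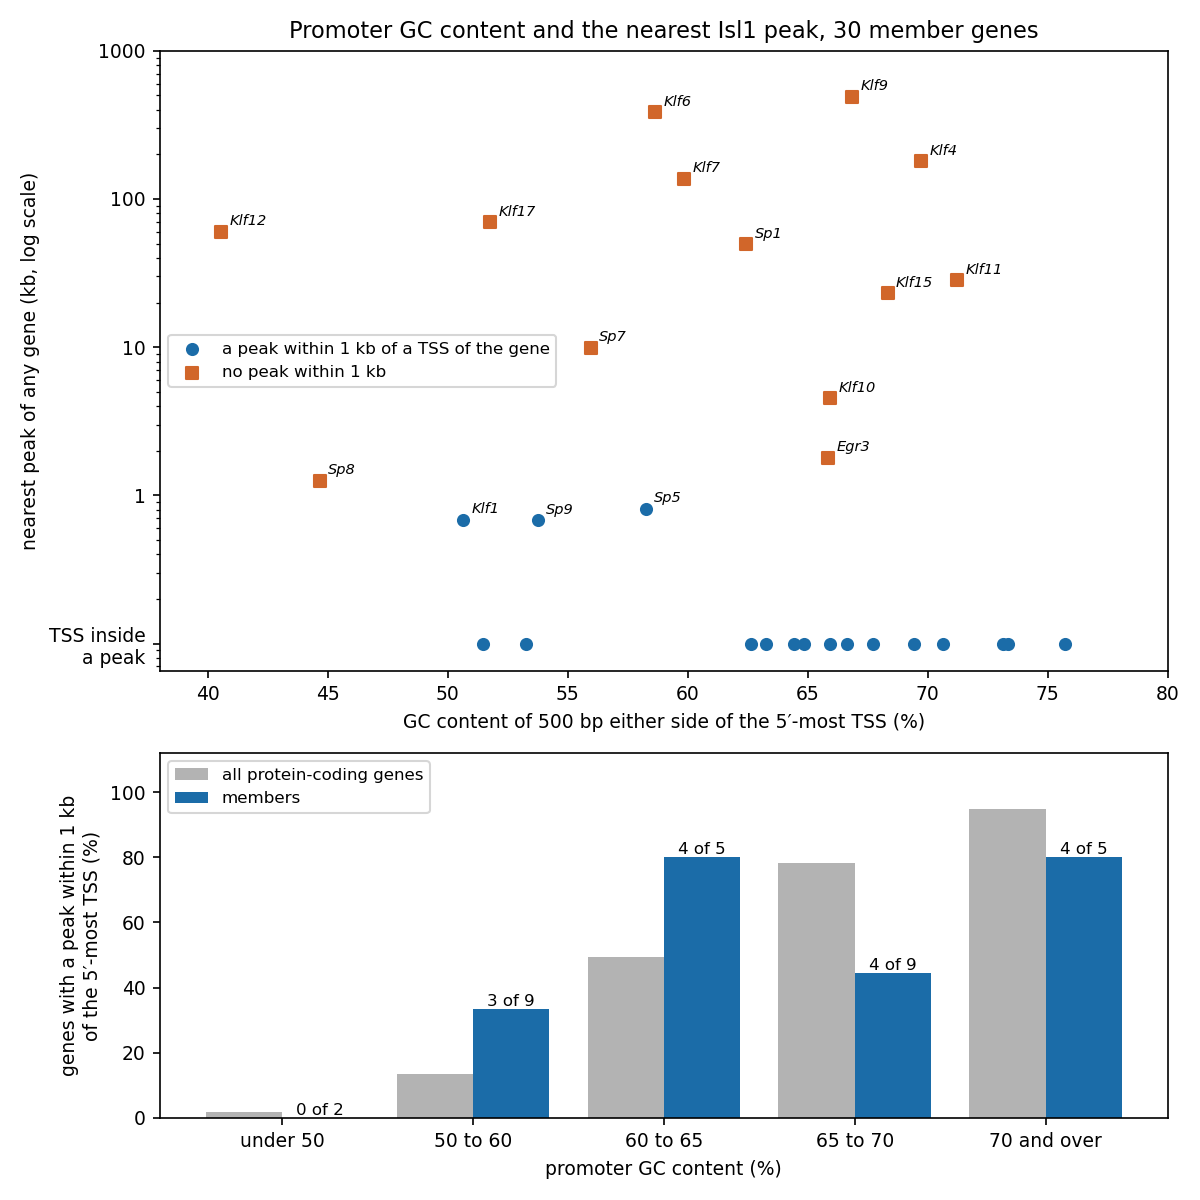
Top, promoter GC content (%) of the 30 genes against the distance in kb (log scale) from an annotated TSS to the nearest peak of any gene, with 14 genes drawn at the bottom because a TSS lies inside a peak. Bottom, share of genes with a peak within 1 kb of the 5′-most TSS by promoter GC content, for all protein-coding genes (grey) and the 30 genes (blue, with counts); from 65 to 70% the shares are 78.3% and 4 of 9.

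Neighbouring genes of the families were also compared. Sp1 and Sp7, with TSSs 39.3 kb apart, had 0 peaks between them, and both lacked an assigned peak. Sp2 and Sp6, 30.4 kb apart, had 1 peak between them, the upstream peak of Sp6 shown above. Sp3 and Sp9 were 291 kb apart with 2 peaks between them, of which 1 was assigned to Sp3. Sp4 and Sp8 were 545 kb apart with 4, of which 2 were assigned to Sp4. Between Klf5 and Klf12, 851 kb apart, 4 peaks lay, all assigned to these genes.

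Partners of the families were counted in the same way. For these lists and those of the next paragraph, the background was not matched for promoter GC content. Among 18 genes of cofactors, 15 had a peak, or 83.3%, and in each it lay no farther than 1 kb from the TSS, against 39.1 and 24.2% of protein-coding genes. They included Nab1 and Nab2, which restrain Egr factors, with peaks 68 and 107 bp from the TSS, and Ctbp1 and Ctbp2, co-repressors of Klf3, at 102 and 399 bp. The acetyltransferase genes Ep300 and Crebbp had peaks at 422 and 352 bp. Sin3a had 3 peaks, whereas Sin3b, Hdac1 and Hdac3 had none. Of 16 genes of signalling and factors upstream of immediate-early genes, 12 had a peak, against the same 39.1%, among them Srf at 463 bp and Creb1 at 187 bp. Elk1, Elk3, Mapk7 and Kdr had none, and the only peak of Mef2c, 317029 bp away, was multi-copy.

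Other GC-rich or CACCC binding zinc-finger genes had a peak in 11 of 13 cases, or 84.6%, against 39.1%. Klf8, a Klf gene that was not among the 30 genes chosen, was counted in this list. Maz, Ctcf and Zic2 had peaks 49, 353 and 240 bp from the TSS, and Klf8 and Zbtb7b had none. Textbook target genes of the factors had a peak in 9 of 24 cases, or 37.5% (interval 21.2 to 57.3%), near the 39.1% of protein-coding genes. Those with a peak within 1 kb were Bcl11a, Pdgfa, Fgf8, Arc, Aldh1a2 and Amh. Targets without any peak included the cell-cycle genes Cdkn1a and Ccnd1, the endothelial genes Nos3 and Thbd, and the globin genes Hbb-b1 and Hbb-bh1.

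**Figure D5:**
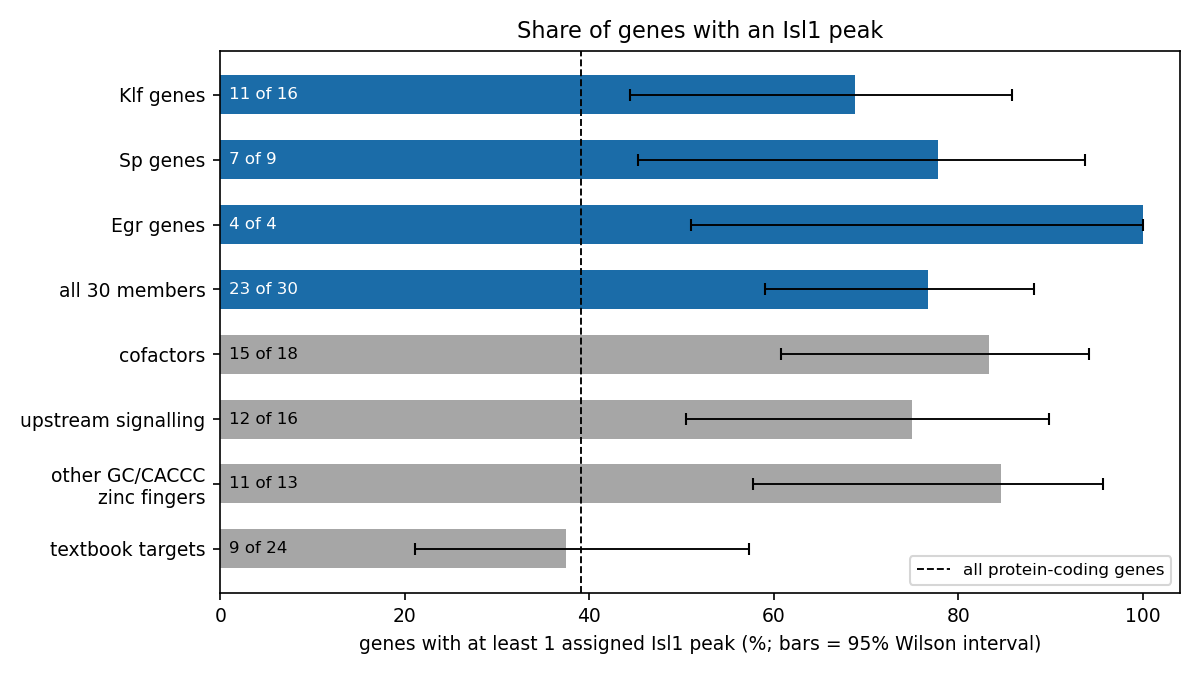
Share of genes (%) with at least 1 assigned Isl1 peak for each family and for the 4 lists of partner and target genes, with 95% Wilson intervals, counts inside the bars and a dashed line at the 39.1% of protein-coding genes. Wt1 is counted among the 30 genes; the textbook targets, at 37.5%, are the only bar below the line.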

How the data were processed

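Isl1 ChIP-Seq of day 5 CPCs comprised 2 ChIP replicates and 1 input, grouped by sample title. The authors aligned reads to mm9 with Bowtie2, removed duplicates with Picard 1.136, called peaks with MACS without a fragment model, removed blacklisted regions and kept areas common to the replicates with bedtools 2.15; HOMER gave the closest TSS. The deposited list holds positions and signed distances to the TSS (other values than counts), 14165 lines with 83 repeats, of which 0 belonged to these genes. It has no reads or scores, so depth, and with it precision, is unknown. Starts are uncertain by 1 bp.

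Sequence came from the NCBI m37 assembly (mm9) and TSSs, exons and untranslated regions from its GENCODE annotation. A RefSeq table of GRCm38 served for names alone and matched all 30 genes. Its 21031 protein-coding genes with a curated transcript were the gene background. Copy number was the median genomic count of 31-mers. It and the motif search were tested on simulated sequence. Python 3.11.15, pandas 2.3.3, numpy 2.4.6, scipy 1.17.1, numba 0.67.0 and matplotlib 3.10.9 were used.

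All 30 genes were named, and other genes where they were on the 4 lists of partners and targets, were assigned a peak within 10 kb of a member's TSS, or held or lay nearest a peak described. Some genes of these lists are not reported here by name. The members and lists were chosen with earlier results of these data known, and no test was run. Alternatives were a minimum width, merging, single-copy peaks, other distances, windows, word lengths and gene backgrounds.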

Additional observations from a re-analysis of the deposited data

How the results depend on the processing

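Of 47 alternative values for 18 results, 34 stayed within 1.5 times a count, or within the spread or interval of a share or median, and 13 did not. Restricting to single-copy peaks left 22 peaks and 3 genes with at least 2, and placed 54.5% of peaks within 1 kb of the TSS. It left 19 of the 30 genes with a peak, against 28.7% of protein-coding genes. In the list, 7536 peaks were single-copy, and of its 5416 peaks within 1 kb only 142 were not. The share of the list within 1 kb thus rises under this restriction too, and stays above that of these genes. The share of all genes with at least 2 single-copy peaks is not given here. Copy number from 75-mers made 19.4% of peaks multi-copy in place of 38.9%. It gave 40.0% of peaks beyond 10 kb in place of 86.7%, and 1 gene with multi-copy peaks alone in place of 4, both added after seeing the data. The list fell likewise, from 81.2 to 50.9% multi-copy beyond 10 kb and from 10.3 to 4.98% within 10 kb. In the central 100 bp the GC box was in 27.8% of peaks and the Egr site in 0.0%, against 25.1 and 3.90% of the list. Over whole peaks, where longer stretches were searched, the GC box was in 66.7% and the CACCC box in 41.7%. The Egr site was in 27.8% and the homeodomain core in 30.6%. In the list these whole-peak shares were, in the same order, 64.3, 32.9, 20.9 and 25.9%. With all genes of the RefSeq table as background, 18.6% had a peak, because noncoding genes enter the denominator. No paired analysis was possible because both ChIP samples were merged into the list, and no test compared ChIP with input, which has 1 replicate number. Leaving out each replicate was not possible for the same reason. The unknown depth means that a gene without a peak is a gene without a called peak in this list.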

Other observations

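Other peaks near these genes were assigned elsewhere. A peak of 735 bp lay 9476 bp upstream of the Klf16 TSS and was assigned to Abhd17a, and a peak of 1648 bp lay 9973 bp downstream of the nearest Egr2 TSS and was assigned to Ado. Over whole peaks, GC boxes were most numerous at Klf13 with 21, Klf3 with 18 and Sp4 with 13, all in wide peaks, and the density was 3.60 per kb over the 36 peaks against 2.92 per kb over the list. In the whole Klf13 and Klf3 peaks the Egr site occurred 4 times each. Midpoints upstream of the assigned TSS made up 18 of 36 peaks, or 50.0%, against 35.6% of the list. Of the 18, 11 were farther than 10 kb away, against 3370 of 5016 upstream peaks in the list.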
